A study of Mus musculus with 5 samples.

Results

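The 10 genes described here encode the myostatin-activin pathway of skeletal muscle: *Mstn*, *Fst*, *Fstl3*, *Acvr2a*, *Acvr2b*, *Acvr1b*, *Tgfbr1*, *Smad2*, *Smad3* and *Smad7*. They were chosen by name, with earlier results of these data known. Each was represented by 1 probe set on the mouse Clariom S array, out of 19505 genes with a single symbol. RNA was measured in a single group of 5 sedentary mice, numbered 1, 3, 11, 14 and 16, with no treated group and no input RNA among the arrays. All 5 carried Myogenin-Cre and RiboTag-Rpl22fl/fl-HA (called HA-RiboTagMyo mice), so that cells with a history of myogenin expression made an HA-tagged ribosomal protein RPL22, and an anti-HA antibody pulled their ribosomes, with the mRNA on them, out of the left soleus. The soleus is a postural hindlimb muscle rich in slow and fast oxidative fibers. Since the driver is myogenin, any cell of the lineage that once expressed it carries the tag. The labels give neither sex nor age, and the study's methods state sexually mature males unless otherwise stated.

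Myostatin (growth differentiation factor 8) is a secreted TGF-β family ligand made by muscle fibers, and its loss gives larger muscles in mice, cattle and people. Myostatin and the activins bind a type II receptor (ACVR2A or ACVR2B), which phosphorylates a type I receptor (ACVR1B, also called ALK4, or TGFBR1, also called ALK5). The type I receptor then phosphorylates SMAD2 and SMAD3, which enter the nucleus with SMAD4. Follistatin (*Fst*) and follistatin-like 3 (*Fstl3*) bind the ligands outside the cell, and SMAD7 blocks the type I receptor from within.

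The array reports a log2 signal per probe set, so 1 unit is a doubling of signal. Probe sets differ in affinity, so a higher signal of 1 gene than of another does not show more of its transcript. Background was read from 1091 odorant receptor genes, most of which have no known role in muscle. Their 95th percentile, taken array by array, lay between 5.25 and 5.32. All 14 myofiber markers were above this level in every mouse, and the tagged gene *Rpl22* read 12.12 ± 0.53 (SD, n = 5). Without input RNA, neither value shows how far the pulldown enriched fibers. Of 73 markers of other cells of muscle (without *Des*, which fibers share), 33 were called above background by limma, beside 43.5% of all genes. The mean over all 73 lay between 5.82 in mouse 11 and 6.04 in mouse 1. Whether fibers also make others of them, such as *Itga7* (mean 10.42) and *Abcc9* (mean 12.51), was not tested. By cell type, and with *Des* kept in the lists that hold it, the calls above background were 8 of 10 for fibroblasts, 8 of 12 for smooth muscle and pericytes, 6 of 11 for endothelium and 4 of 7 for tenocytes. They were 2 of 6 for adipocytes, 2 of 6 for Schwann cells, 1 of 2 for erythroid cells, 3 of 12 for satellite cells (*Des*, *Sdc4* and *Itga7*) and 1 of 10 for immune cells (*Mrc1*). *Pax7* and *Calcr* of satellite cells and *Ptprc* of immune cells lay under the cutoff in every mouse. How much of any member's signal came from such cells was not tested, and in a pulldown of whole muscle fewer cells of a type and less RNA per cell cannot be told apart. Y-linked *Eif2s3y* lay at 3.54 and 3.53 in mice 1 and 16, and between 10.42 and 12.73 in the other 3 mice. The same split was seen in *Uty* and *Kdm5d*, so 2 of the 5 arrays did not show the Y-linked transcripts that males carry. The calls that follow were repeated over mice 3, 11 and 14.

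Of the 10 members, 8 were called above background and 2 below it. A call means that the signal minus the array's cutoff differed from 0 at an adjusted p under 0.05 (limma, one-sample fit, two-sided, Benjamini-Hochberg over all 19505 genes). By that rule 43.5% of all genes were above background and 45.4% below. Median distance from the cutoff was 1.73 over the members and -0.12 over all genes. Members above background comprised the ligand, 1 of 2 binding proteins, all 4 receptors and both receptor-activated Smads. *Fstl3* and *Smad7* were below. In 6 members the signal exceeded the cutoff in every mouse, as it did in 42.5% of all genes, and in *Mstn* and *Acvr2b* it did so in 4 of 5 mice. Over mice 3, 11 and 14 alone, each of the 10 members kept its side of the cutoff and its call, with distances of 1.05 for *Mstn* and 0.68 for *Acvr2b*.

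**Figure D1:**
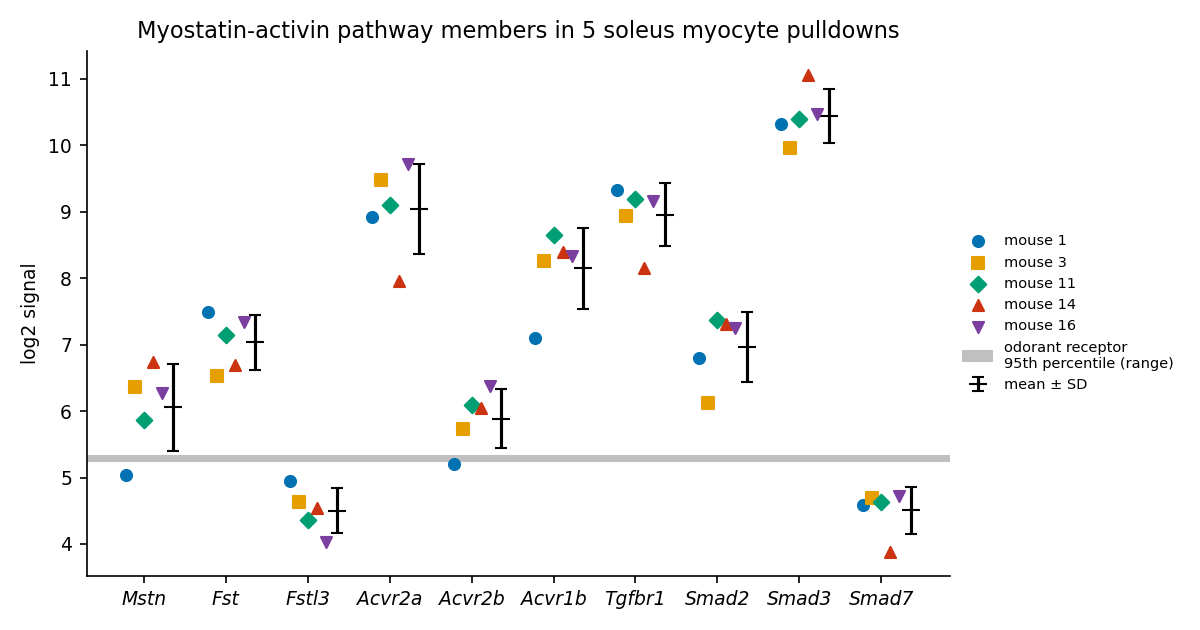
Log2 signal (vertical axis) of the 10 members (horizontal axis) in each of 5 mice (symbols), with the mean ± SD over mice beside them and the range of the odorant receptor cutoff over arrays as a grey band (5.25 to 5.32). *Fstl3* and *Smad7* lie under the band in all 5 mice, and *Mstn* and *Acvr2b* straddle it through mouse 1 alone.

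*Mstn*, the ligand, passed the test. It read 5.04, 6.37, 5.86, 6.73 and 6.27 in mice 1, 3, 11, 14 and 16. Mouse 1 was under its cutoff and the other 4 mice were over theirs. The mean of 6.05 ± 0.65 (SD, n = 5) lay 0.78 above the cutoff (standard error 0.22, 95% confidence interval 0.29 to 1.26, adjusted p = 0.00579 from limma). The call was lost when the 99th percentile of those genes served as cutoff (0.24, adjusted p = 0.315) and against genes of beta-defensins and keratin-associated proteins (0.22, adjusted p = 0.362, both from limma). Without mouse 1, the animal farthest from the mean, the SD was 0.36. Leaving out the farthest value lowers an SD by construction.

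The letters upstream of the *Mstn* start are shown because this gene and *Acvr2a* had the largest SDs of the called members and lay at opposite ends in mouse 14. Both runs are the 250 bases before the RefSeq start in GRCm38.p6, plus strand, chr1:53061390-53061639 for *Mstn* and chr2:48813859-48814108 for *Acvr2a*, with E-boxes (CANNTG, a palindromic pattern, so read on both strands) and TATA boxes (TATAAA, either strand) in capitals.
Mstn: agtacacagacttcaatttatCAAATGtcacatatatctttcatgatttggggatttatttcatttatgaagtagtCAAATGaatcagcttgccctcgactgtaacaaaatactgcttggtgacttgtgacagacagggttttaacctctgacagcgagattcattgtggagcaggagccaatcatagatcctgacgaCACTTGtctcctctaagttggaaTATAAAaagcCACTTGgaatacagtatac
Acvr2a: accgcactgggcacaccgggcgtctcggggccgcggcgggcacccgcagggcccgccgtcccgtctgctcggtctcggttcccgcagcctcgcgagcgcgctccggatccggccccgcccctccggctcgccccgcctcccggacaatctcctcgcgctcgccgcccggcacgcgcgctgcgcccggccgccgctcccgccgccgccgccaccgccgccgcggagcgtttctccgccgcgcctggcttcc
The *Mstn* run holds 4 E-boxes, the kind of site that myogenic factors such as MyoD and myogenin bind, and a TATA box that begins 29 bases before the start and overlaps none of them. An E-box occurred in 66.2% of the 32841 RefSeq windows of this length, 4 or more in 3.84%, and a TATA box in 12.4%. The *Acvr2a* run holds neither pattern. Its GC content was 82.0%, against 38.4% for *Mstn* and a median of 52.4% over all windows. RefSeq windows were matched for 7 of the 10 members, 8 windows in all, and 4 of these windows held an E-box (*Mstn*, *Fstl3*, *Acvr1b* and 1 of the windows of *Tgfbr1*). Smad boxes (GTCTAGAC) and CAGA boxes (AGCCAGACA), patterns bound by SMAD3 and SMAD4, and FoxO sites (GTAAACA) were found in none of the 8 on either strand, and in 0.167%, 0.301% and 3.17% of all windows. A TATA box was found in the windows of *Mstn* and *Fstl3*. A match of letters does not show that a factor was bound.

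Of the ligand binders, follistatin was above background and follistatin-like 3 was not. *Fst* read 7.49, 6.53, 7.14, 6.69 and 7.34 in mice 1, 3, 11, 14 and 16. All 5 mice were well clear of the cutoff. The mean of 7.04 ± 0.41 (SD, n = 5) lay 1.76 above it (standard error 0.17, 95% confidence interval 1.39 to 2.13, adjusted p = 1.08e-06 from limma). Mice 1 and 16, those at background for *Eif2s3y*, had the highest *Fst* signals. *Fst* was the 1 called member of 8 in which these mice stood above the other 3, a pattern held by 10.7% of all called genes. In 0 of 8 did they stand below the other 3, against 13.4% of called genes. The relation of *Fst* to sex was not tested. *Fstl3* read 4.95, 4.63, 4.37, 4.55 and 4.02 in mice 1, 3, 11, 14 and 16. It was under the cutoff in every mouse, and its mean of 4.50 ± 0.34 (SD, n = 5) gave a distance of -0.77 (95% confidence interval -1.12 to -0.43, adjusted p = 0.000543 from limma). Most odorant receptor genes lie under the same cutoff by construction, so this does not show that the transcript was absent. Taking their 50th percentile in its place, the distance of *Fstl3* was 0.47 (adjusted p = 0.0168 from limma).

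Both type II receptors passed the test. *Acvr2a* read 8.92, 9.48, 9.10, 7.96 and 9.73 in mice 1, 3, 11, 14 and 16. The lowest signal, that of mouse 14, was still far over the cutoff, and the mean of 9.04 ± 0.68 (SD, n = 5) had a distance of 3.76 (standard error 0.23, 95% confidence interval 3.26 to 4.26, adjusted p = 1.49e-08 from limma). Its SD of 0.68 exceeded that of 91.5% of called genes, and was 0.36 without mouse 14. *Acvr2b*, the receptor with the better known affinity for myostatin, read 5.20, 5.73, 6.09, 6.04 and 6.37 in mice 1, 3, 11, 14 and 16. As with *Mstn*, mouse 1 alone lay under the cutoff. The mean was 5.89 ± 0.44 (SD, n = 5) and its distance 0.61 (standard error 0.18, 95% confidence interval 0.21 to 1.00, adjusted p = 0.00716 from limma). This call was lost with 3 alternative cutoffs, the 99th percentile (0.070, adjusted p = 0.703), vomeronasal receptor genes (0.38, adjusted p = 0.0780) and genes of beta-defensins and keratin-associated proteins (0.055, adjusted p = 0.784, all from limma).

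The type I receptors were above background in every mouse. *Acvr1b* read 7.09, 8.26, 8.65, 8.40 and 8.34 in mice 1, 3, 11, 14 and 16. Mouse 1 stood apart (gap over range above Dixon's critical value, as for a mouse in 5.6% of called genes) below a tight cluster of the other 4, whose SD was 0.17. Over all 5 the mean was 8.15 ± 0.61 (SD, n = 5) and the distance from the cutoff 2.87 (standard error 0.21, 95% confidence interval 2.40 to 3.34, adjusted p = 1.03e-07 from limma). *Tgfbr1*, which also serves the TGF-β ligands themselves, read 9.33, 8.94, 9.19, 8.15 and 9.17 in mice 1, 3, 11, 14 and 16. Here mouse 14 was the low one, and without it the SD was 0.16. The mean of 8.96 ± 0.47 (SD, n = 5) had a distance of 3.68 (standard error 0.18, 95% confidence interval 3.28 to 4.07, adjusted p = 1.92e-09 from limma).

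**Figure D2:**
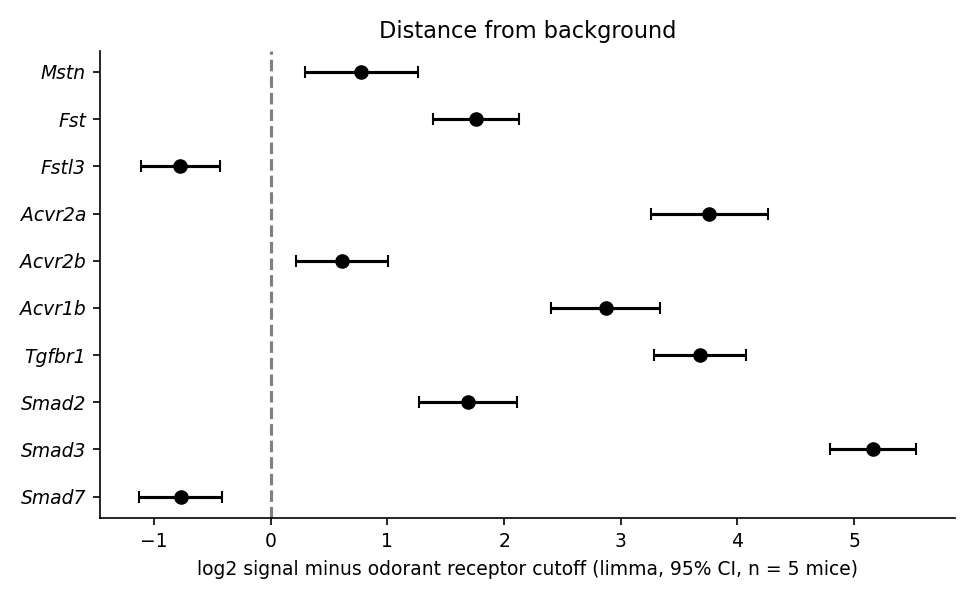
Mean log2 signal minus the odorant receptor cutoff for each member (points), with the 95% confidence interval from limma (bars, n = 5 mice) and the cutoff as a dashed line at 0. The intervals of *Mstn* (0.29 to 1.26) and *Acvr2b* (0.21 to 1.00) come nearest to the line from above, and those of *Fstl3* and *Smad7* lie wholly below it.

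Both Smads activated by these receptors were detected. *Smad3* read 10.32, 9.95, 10.39, 11.06 and 10.47 in mice 1, 3, 11, 14 and 16. Every array was over its cutoff, and the mean of 10.44 ± 0.40 (SD, n = 5) lay 5.16 above it (standard error 0.17, 95% confidence interval 4.79 to 5.53, adjusted p = 3.67e-11 from limma). *Smad2* read 6.79, 6.12, 7.37, 7.31 and 7.24 in mice 1, 3, 11, 14 and 16. Its low animal was mouse 3, without which the SD was 0.26. *Smad2* had a mean of 6.97 ± 0.53 (SD, n = 5) and a distance of 1.69 (standard error 0.19, 95% confidence interval 1.27 to 2.11, adjusted p = 4.69e-06 from limma). *Smad7*, the inhibitor, read 4.59, 4.69, 4.63, 3.88 and 4.73 in mice 1, 3, 11, 14 and 16. No mouse reached the cutoff, and the mean of 4.50 ± 0.35 (SD, n = 5) had a distance of -0.77 (95% confidence interval -1.13 to -0.42, adjusted p = 0.000726 from limma). The SD was 0.060 without mouse 14, whose signal was the lowest. Against the 50th percentile of odorant receptors the distance was 0.47 (adjusted p = 0.0190 from limma).

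Differences between the mice did not run the same way in all members. Mouse 14 had the highest signals of *Mstn* and *Smad3* and the lowest of *Acvr2a* and *Tgfbr1*, against 26.7% and 24.1% of called genes in which it was highest and lowest. It was thus at an end of the range in 4 of 8 called members, as it was in 50.8% of all called genes. Mouse 1 had the lowest signals of *Mstn*, *Acvr2b* and *Acvr1b*, 3 of 8 called members, against 21.9% of called genes. Mouse 3 had the lowest of *Fst*, *Smad2* and *Smad3*, against 16.2%. Myosin heavy chains, the motor proteins that define fiber types, were set beside these values. *Myh4*, of fast glycolytic fibers, read 16.72, 18.44, 17.69, 19.83 and 17.10 in mice 1, 3, 11, 14 and 16. *Myh1*, of another fast fiber type, was likewise highest in mouse 14 (18.21) and lowest in mouse 1 (17.04). *Mstn* shared both ends with them, a pattern of 9.6% of called genes, and differed in the order of mice 11 and 16. The slow chain *Myh7* was lowest in mouse 14 (19.31) and highest in mouse 16 (19.90), as was *Acvr2a*. The share of called genes with this pattern was not counted. Mice 1 and 3 came in opposite order, at 19.73 and 19.64 for *Myh7* and at 8.92 and 9.48 for *Acvr2a*. In mouse 16 *Myh7* read the same as *Myh2*, *Acta1* and *Mb* (19.90), so its value there was at the ceiling of that array. *Myh2* read 19.90 or more in all mice, where the highest value on any array was 19.93. The *Myh4* signal of mouse 14 (19.83) was also close to that value. With 5 mice no correlation was computed, and the part of fiber type in these signals was not tested.

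**Figure D3:**
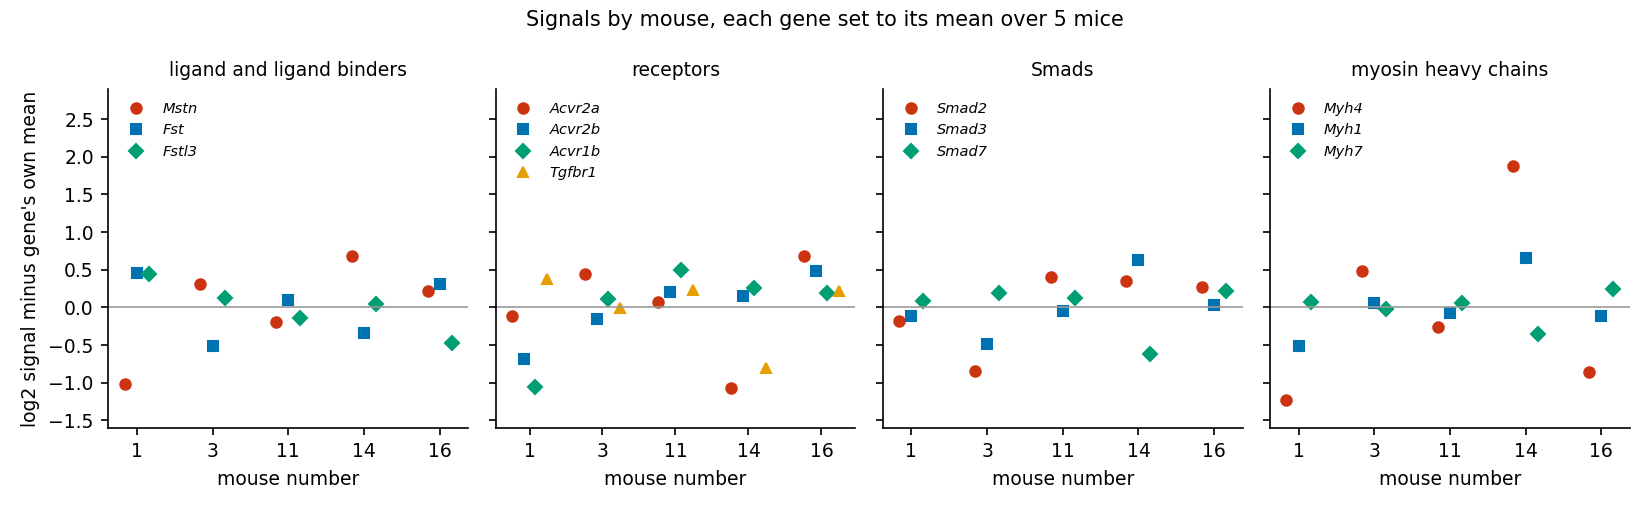
Log2 signal of each gene minus its own mean over 5 mice (vertical axis) for each mouse (horizontal axis), in panels for the ligand with its binding proteins, receptors, Smads and myosin heavy chains. In mouse 14, *Mstn* is 0.68 above its mean, *Myh4* 1.87 above, and *Acvr2a* and *Tgfbr1* are at -1.08 and -0.80.

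The spread between mice was above average in the called members. Over all genes called above background the median SD was 0.36, with quartiles of 0.26 and 0.50. All 8 called members had an SD over that median, from 0.40 for *Smad3* to 0.68 for *Acvr2a*, and 4 of them (*Mstn*, *Acvr2a*, *Acvr1b* and *Smad2*) were over the upper quartile. Several of these SDs were lower without 1 animal, as given with each gene, but dropping the farthest value lowers an SD by construction. Among the 8 called members, only *Acvr1b* had a mouse apart by Dixon's ratio. Leaving out mouse 1 changed the SD of *Acvr2b* to 0.26, against 0.44 over all mice, and leaving out mouse 14 changed that of *Smad3* to 0.23, against 0.40.

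**Figure D4:**
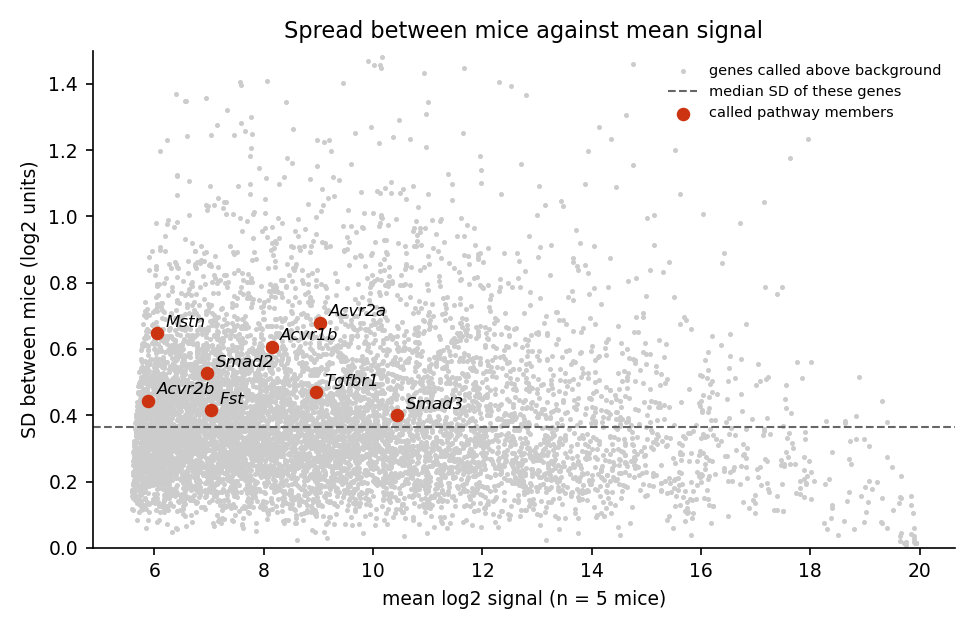
SD between 5 mice against mean log2 signal for genes called above background (grey), with the 8 called members in red and the median SD of 0.36 as a dashed line. All 8 red points lie over the line, and 26 grey genes with an SD above 1.5 are outside the axis.

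The genes whose signals, set to their own means, lay nearest those of *Mstn* over the 5 mice were *Tbc1d19* (root mean square difference 0.11), *Mr1* (0.13), *Jade1* (0.15), *Psme1* (0.17) and *Ctsc* (0.19), among 8481 called genes compared. All 5 were lowest in mouse 1, and all but *Ctsc* were highest in mouse 14. For *Acvr2a* they were *Sel1l3* (0.094), *Trrap* (0.16), *Abcc1* (0.16), *Zcchc9* (0.17) and *Snx17* (0.18), each lowest in mouse 14. Near profiles are to be had by selection among so many genes, and these are given as a description over 5 animals.

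Of 82 other genes of the pathway that were measured, 44 were called above background, 29 below and 9 neither, beside 43.5% and 45.4% of all genes. The ligands were mostly below. Of 11 ligand genes of the activin, inhibin, nodal, GDF and TGF-β groups, 3 were called above. These were *Tgfb2* at 8.20 ± 0.93, *Tgfb3* at 7.70 ± 0.36 and *Inha*, the inhibin alpha subunit, at 6.19 ± 0.56 (SD, n = 5 each). *Tgfb2* read 6.85, 7.90, 8.90, 9.22 and 8.15 in mice 1, 3, 11, 14 and 16, so its highest and lowest animals were those of *Mstn*. Among called pathway genes *Chrd*, *Smad6* and *Trim33* shared these ends too, as did 9.6% of all called genes. *Inhba* and *Inhbb*, the activin A and B subunits, and *Gdf11*, the closest relative of myostatin, were under the cutoff in every mouse, at 3.83 ± 0.30, 3.80 ± 0.41 and 3.73 ± 0.34 (SD, n = 5 each). Among 11 BMP and GDF ligand genes, *Bmp6* alone was called above, at 6.06 ± 0.24 (SD, n = 5).

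Proteins that hold or process the ligands were split. Of 12 genes for ligand binding proteins 7 were called above, with *Dcn*, a matrix proteoglycan and fibroblast marker, at 9.34 ± 0.80, *Ltbp3*, a latent TGF-β binding protein, at 8.43 ± 0.24 and *Wfikkn2*, which binds myostatin, at 7.76 ± 0.46 (SD, n = 5 each). The related *Wfikkn1* had 7.02 ± 0.24 (SD, n = 5). Of 6 proteases listed for cleavage of the precursor, the proprotein convertases *Pcsk6* at 6.40 ± 0.22 and *Furin* at 6.13 ± 0.39 (SD, n = 5 each) were called. The tolloid proteases *Bmp1* and *Tll1*, which free myostatin from its propeptide, were called below, and *Tll2* had a distance of 0.060 (adjusted p = 0.733 from limma).

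Receptors of the neighboring BMP and TGF-β branches were mostly above background. The type II receptors *Bmpr2* at 10.58 ± 0.80, *Amhr2* at 7.61 ± 0.66 and *Tgfbr2* at 7.42 ± 0.32 (SD, n = 5 each) were called, 3 of 3. In *Bmpr2*, mouse 14 was highest at 11.70 and mouse 16 lowest at 9.48. Of 5 type I receptors 3 were called, *Bmpr1a* at 9.90 ± 0.31, *Bmpr1b* at 8.27 ± 0.46 and *Acvr1* at 7.14 ± 0.14 (SD, n = 5 each). *Acvr1c* (ALK7), the remaining type I receptor for activin-like ligands, was called below. The coreceptor genes *Tgfbr3* (betaglycan) at 8.40 ± 0.39, *Lrp1* at 6.89 ± 0.24 and *Eng* at 6.07 ± 0.76 (SD, n = 5 each) were called, 3 of 5. In mouse 16 *Eng* was under the cutoff, at 5.16.

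In the lists of genes that act inside the cell, most were called above background, beside 43.5% of all genes. Of 5 other Smads 4 were called, the common partner *Smad4* at 11.22 ± 0.28, the BMP-activated *Smad5* at 9.89 ± 0.49 and *Smad1* at 8.77 ± 0.25, and the inhibitory *Smad6* at 6.67 ± 0.41 (SD, n = 5 each). *Smad6* was thus called above in the same arrays in which *Smad7* was called below. Of 14 Smad regulators 12 were called, with the deubiquitinase *Usp15* at 13.82 ± 0.15, the phosphatase *Ppm1a* at 12.80 ± 0.54 and *Fkbp1a*, which binds type I receptors, at 11.03 ± 0.42 (SD, n = 5 each). Of 10 Smad partners and reported targets 6 were called, among them the muscle ubiquitin ligases *Trim63* at 16.04 ± 1.01 and *Fbxo32* at 15.18 ± 0.53, and *Jun* at 12.68 ± 0.87 (SD, n = 5 each). *Trim63* was highest in mouse 11 (17.14) and lowest in mouse 16 (14.62), and *Mstn* was at neither end in these mice. Many of these genes answer to other pathways too, and no activity of the receptors was measured.

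**Figure D5:**
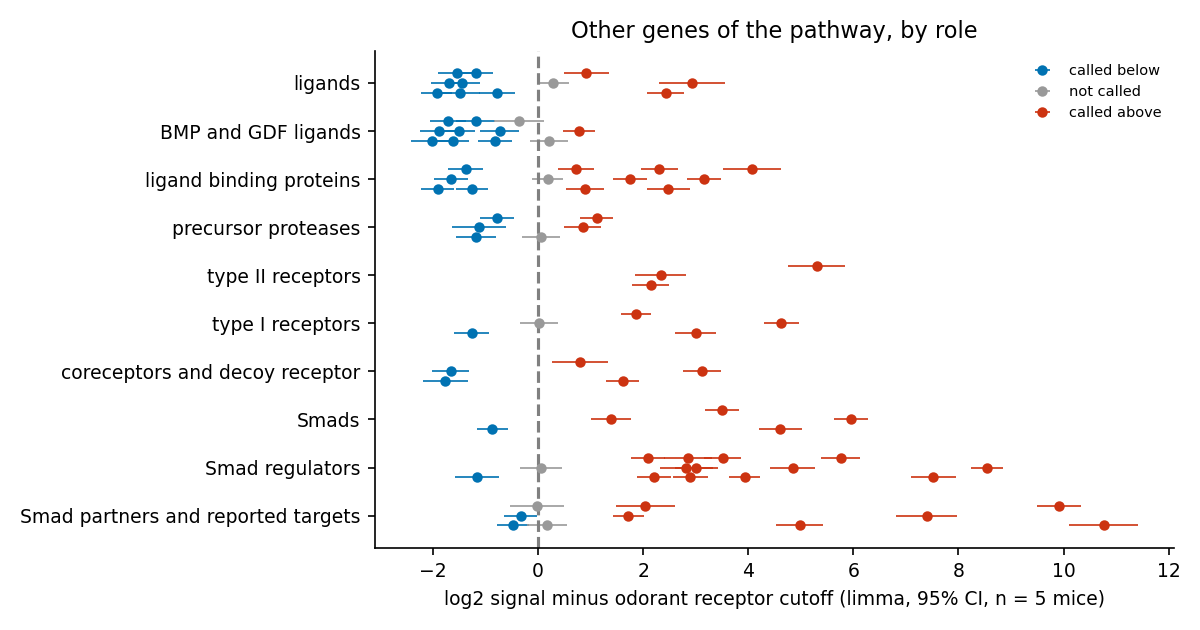
Mean log2 signal minus the odorant receptor cutoff (points) with 95% confidence intervals from limma (bars, n = 5 mice) for the other genes of the pathway, grouped by role down the page and colored by call. Ligands lie mostly left of the dashed line (3 of 11 and 1 of 11 called above), whereas 12 of 14 Smad regulators were called above.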

How the data were processed

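RNA eluted from an anti-HA ribosome pulldown of the left soleus was hybridized to mouse Clariom S arrays, 1 per mouse. The authors processed the intensities with Transcriptome Analysis Console 4.0 in its default configuration and deposited log2 signals for 22206 probe sets. No source used here names the summarization algorithm or the genome build. Default processing of this kind levels arrays, so a shift common to all genes of 1 array would not be seen. Array medians lay between 5.11 and 5.20. A single symbol was given for 19572 probe sets and none for 2634, and 55 genes with several probe sets were averaged.

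Signals minus each array's 95th percentile of odorant receptor genes were tested against 0 (limma 3.58.1, R 4.3.3, one-sample fit, eBayes, two-sided, Benjamini-Hochberg over 19505 genes), after a check on simulated data. Python 3.11.15, pandas 2.3.3, numpy 2.4.6 and matplotlib 3.10.9 made the tables and plots. No depth exists for arrays, and their number limits the precision. The alternatives were other percentiles, 2 other background gene sets (319 vomeronasal receptor genes and 89 genes of beta-defensins and keratin-associated proteins), another prior, renewed quantile normalization, a filter on dim genes, a rule with no model, each mouse left out, and mice 3, 11 and 14 alone. Members and lists were chosen with earlier results of these data known. Genes named are all members, the 3 called genes of each role farthest above the cutoff (all where 5 or fewer were called), a choice that probe set affinity can affect, the 5 nearest profiles, and context genes. *Inhba*, *Inhbb*, *Gdf11*, *Wfikkn1*, *Acvr1c*, *Bmp1*, *Tll1*, *Tll2* and the named markers of other cells were added for their roles after their values were seen. Upstream sequences come from RefSeq (GRCm38.p6), without the 50 bases after each start.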

Additional observations from a re-analysis of the deposited data

Results flagged for a closer look

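In 6 of 92 genes, the 10 members and 82 others of the pathway, 1 animal stood off from the rest, the gap divided by the full range being above 0.71, Dixon's critical value for 5 samples. Chance alone would mark about 1 in 20, or 4.6. Among members, *Acvr1b* had a ratio of 0.753, with mouse 1 at 7.09 and the next lowest at 8.26. *Smad7* had a ratio of 0.838, with mouse 14 at 3.88 and the rest from 4.59 to 4.73, all of them below background. *Wfikkn2* had a ratio of 0.750 (mouse 1 at 6.95, the rest from 7.84 to 8.14). In *Furin* the ratio was 0.764 (mouse 1 at 6.81, the rest from 5.85 to 6.08). Both *Gdf11*, with a ratio of 0.769 (mouse 11 at 3.13), and *Smad9*, with a ratio of 0.811 (mouse 16 at 4.13), were below background in every mouse.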

How the results depend on the processing

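The number of members called above background was 8, and from 6 to 10 under the alternatives. It was 10 at the 50th percentile of odorant receptors, 7 against vomeronasal receptor genes, and 6 with the 99th percentile, against genes of beta-defensins and keratin-associated proteins, and by the rule with no model. Over all genes, the 50th percentile called 12814, against 8482 with the 95th, a change above 1.5 times. With that percentile *Fstl3* and *Smad7* turned to the upper side of the cutoff (distances of 0.47 each). The calls of *Mstn* and *Acvr2b* were lost under 2 and 3 other cutoffs, as given in the report. The remaining 131 of 138 distances of single members under an alternative kept their direction and call. With each mouse left out in turn, 8 members were called every time, the count over the other pathway genes was 44 to 45, and that over all genes 8353 to 8390. The filter on dim genes left out *Fstl3* and *Smad7*, so these had no value there. No paired analysis was possible because the arrays form a single group.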
